A study of Mus musculus with 8 samples.

Results

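Zfp965, Zfp966, Zfp970, Zfp971 and Zfp979 are mouse zinc finger genes that were measured here in dorsal skin after topical treatment of depilated mice. They were selected as the probe sets whose single gene symbol in the platform annotation is one of these names, and each gene had 1 probe set, giving 5 of the 22206 non-control probe sets on the array. These genes were picked because their values stood among the highest under treatment relative to water control, so every value against control below is a description and carries no test. An earlier look at the same arrays had named Zfp965, Zfp971 and Zfp979 for the minoxidil contrast and Zfp966 and Zfp970 for the tieghemelin contrast. Differences among the treatments are therefore not independent of the choice of genes either.

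The samples were 8 Clariom S Mouse arrays, a platform that measures 1 summary value per probe set by hybridisation of biotin-labelled material made from RNA. All groups were male C3H mice aged 7 weeks, kept for 7 days before use, trimmed and depilated on the back and then treated every day for 20 days, with 8 mice assigned to each group. Control skin received Milli-Q water. The titles of both control arrays name them as controls for tieghemelin and maslinic acid, and the same 2 arrays serve here as the reference for minoxidil. The other groups received 1% minoxidil, a vasodilator used against hair loss, 1% tieghemelin, a triterpenoid saponin, or 1% maslinic acid, a pentacyclic triterpene acid of olive. Each group had 2 arrays. One label of Minoxidil array 2 gives 1% and another gives 2%. The labels do not say which or how many mice each array holds, so the spread between arrays may be technical.

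KRAB zinc finger proteins bind DNA through tandem zinc fingers and recruit the co-repressor Trim28 through the KRAB domain. Trim28 in turn brings the histone methyltransferase Setdb1 and heterochromatin proteins, which silence many transposable elements in early embryos. Mouse chromosomes 2 and 4 hold large clusters of such genes that arose by recent tandem duplication, and their copies are close in sequence. The gene table also lists Zfp971 as Etohi1 and Zfp979 as Ssm1b, the latter known as a strain-dependent modifier of transgene methylation. Protein sequences and probe sequences were not used here, so neither the KRAB domain nor the share of signal from near-identical copies was checked, and the value of each probe set may include related transcripts.

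The promoters show how closely 4 of the 5 genes are related and are printed for that reason. RefSeq promoters (GRCm38.p6, 250 bases before to 50 after the gene start) were matched by gene ID for all 5 members. Zfp965 and Zfp966 had the same base at 285 of 286 aligned positions (99.7%), Zfp965 and Zfp970 at 287 of 291 (98.6%), and Zfp965 and Zfp971 at 291 of 300 (97.0%). The stretch of 236 bases upstream of the start that these 4 genes on chromosome 2 share without a gap lies at chr2:175469775-175470010 (plus strand) for Zfp965, chr2:175931101-175931336 (minus strand) for Zfp966, chr2:177464501-177464736 (plus strand) for Zfp970 and chr2:178023034-178023269 (plus strand) for Zfp971. Capitals mark the bases that differ from Zfp965.
Zfp965: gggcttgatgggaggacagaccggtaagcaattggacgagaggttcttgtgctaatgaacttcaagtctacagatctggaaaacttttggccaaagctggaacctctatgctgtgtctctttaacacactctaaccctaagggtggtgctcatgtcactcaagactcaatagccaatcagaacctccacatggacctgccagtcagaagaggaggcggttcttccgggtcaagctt
Zfp966: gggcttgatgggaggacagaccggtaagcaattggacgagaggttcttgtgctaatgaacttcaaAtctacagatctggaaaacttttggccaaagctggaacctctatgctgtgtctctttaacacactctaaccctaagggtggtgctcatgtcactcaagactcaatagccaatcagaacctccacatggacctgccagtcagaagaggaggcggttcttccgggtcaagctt
Zfp970: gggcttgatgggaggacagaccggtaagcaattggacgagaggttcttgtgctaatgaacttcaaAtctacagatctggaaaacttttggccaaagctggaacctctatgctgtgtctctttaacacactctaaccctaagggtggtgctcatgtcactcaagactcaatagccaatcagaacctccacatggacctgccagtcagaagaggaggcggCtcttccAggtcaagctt
Zfp971: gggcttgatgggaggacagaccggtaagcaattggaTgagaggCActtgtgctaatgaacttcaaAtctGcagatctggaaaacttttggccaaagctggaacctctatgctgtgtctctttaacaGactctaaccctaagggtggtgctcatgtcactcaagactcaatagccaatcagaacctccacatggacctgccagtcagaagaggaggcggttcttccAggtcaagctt
Counted from 1 at the 5′ end of this stretch, Zfp966 differed from Zfp965 at 1 position, G66A. Zfp970 differed at 3 positions, G66A, T219C and G226A. Zfp971 differed at 7 positions, including G66A and G226A.

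The longest run present in all 4 chromosome 2 promoters spanned 91 bases, printed here with its CCAAT motif in capitals.
Shared run: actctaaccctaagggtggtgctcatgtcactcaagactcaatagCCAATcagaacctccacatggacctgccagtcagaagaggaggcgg
This run occurred in 22 of 32851 promoters of the table, belonging to 19 of 27025 genes, and all 22 were on chromosome 2. Zfp979, on chromosome 4, was not part of this group: its promoter aligned to each of the others over only 23 bases. The 250 bases before its start lie at chr4:147642509-147642758 (minus strand), with ATTGG in capitals, which is CCAAT read on the opposite strand.
Zfp979: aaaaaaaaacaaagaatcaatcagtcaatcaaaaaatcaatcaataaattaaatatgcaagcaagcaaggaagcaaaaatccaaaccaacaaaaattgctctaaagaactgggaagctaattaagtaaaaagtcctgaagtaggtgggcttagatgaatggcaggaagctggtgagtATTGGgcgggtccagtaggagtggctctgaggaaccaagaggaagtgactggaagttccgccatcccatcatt
CCAAT on either strand was found in 37.4% of all promoters of the same length in the table. Each of the 4 chromosome 2 members held 1 CCAAT and 1 ATTGG, and Zfp979 held ATTGG alone. GGGCGG on either strand was present in 1 copy in Zfp979 and in none of the other 4, against 35.7% of all promoters. TATAAA on either strand, found in 13.6% of promoters, was in none of the 5.

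Before any comparison, Control array 1 stood apart. Its log2 values had an SD of 1.32 over probe sets, against 1.62 to 1.69 on the other 7 arrays, and its 99th percentile was 11.44 against 13.98 to 14.56. Its correlation with the other arrays over all probe sets was 0.518 to 0.538, whereas the other 7 correlated among themselves at 0.901 to 0.966. The ceiling of the scale, 19.93, was reached on 6 arrays, and 9 to 18 probe sets per array lay within 0.05 of it. Medians of the antigenomic background probe sets were 7.75 and 7.61 in control and 7.51 and 7.33 under minoxidil. They were lower under tieghemelin, at 7.02 and 6.97, and under maslinic acid, at 6.96 and 7.08. The part of this difference in background in the comparisons below was not tested. The keratinocyte gene Krt5 measured 9.27 to 13.72, above background on all 8 arrays, and skeletal muscle genes were also present, with a list median of 8.80 to 15.03 per array.

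The 5 zinc finger genes were dim on Control array 1 and bright on all of the other 7 arrays, Control array 2 included. Over all probe sets 35.5% had their lowest value on Control array 1. On Control array 1 they measured 7.92 to 9.07 on the deposited log2 scale, which was 0.17 to 1.32 above the background median of that array and within its 48.8th to 81.1st percentile. On the other 7 arrays they measured 12.17 to 15.12, at the 97.6th to 99.2nd percentile and 4.66 to 7.91 above background. The highest value was 4.81 below the ceiling, so the ceiling did not limit any of the 5 genes. In whole skin RNA, fewer cells of a type and less RNA per cell cannot be told apart.

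**Figure D1:**
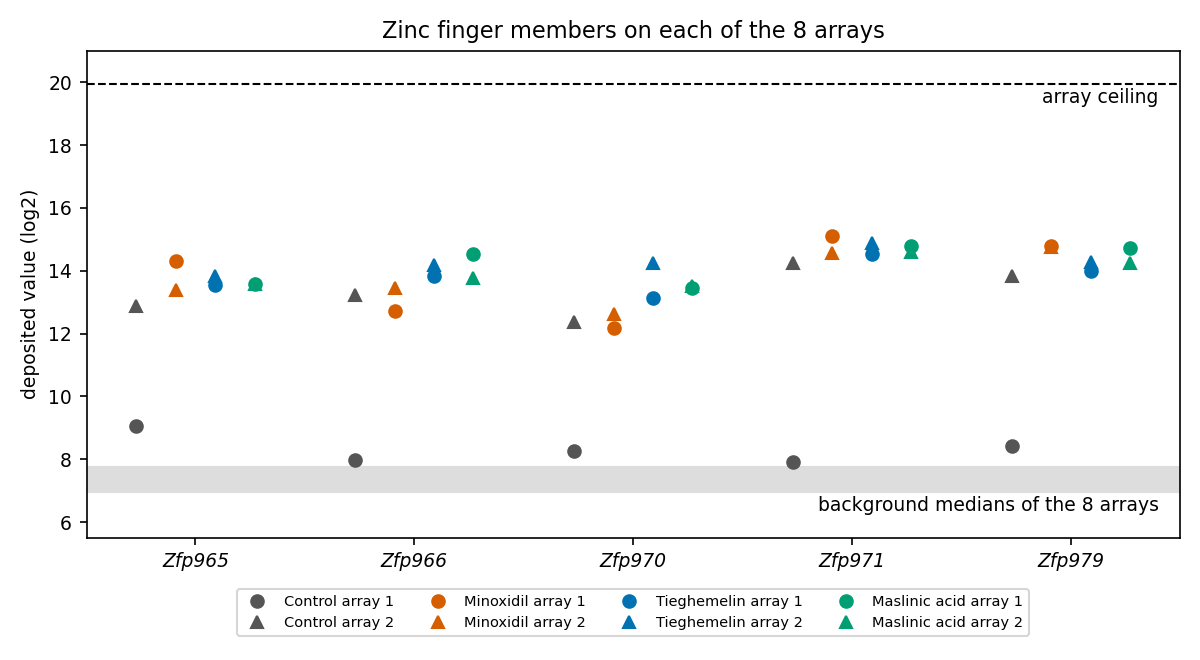
Deposited log2 value (vertical axis) of each of the 5 zinc finger genes on each array, with colour for the group and marker shape for the array, the ceiling as a dashed line and the range of background medians in grey. Control array 1 lies at 7.92 to 9.07 for all 5 genes and the other 7 arrays at 12.17 to 15.12.

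Zfp971 measured 7.92 and 14.24 on the 2 control arrays, 15.12 and 14.56 under minoxidil, 14.52 and 14.88 under tieghemelin, and 14.80 and 14.58 under maslinic acid. All 6 treated arrays were above both controls, and the 3 treatments overlapped each other. Zfp965 measured 9.07 and 12.88 in control, 14.30 and 13.39 under minoxidil, 13.53 and 13.82 under tieghemelin, and 13.58 and 13.58 under maslinic acid. Its treated arrays were again all above both controls, and the tieghemelin and maslinic acid arrays lay between the 2 minoxidil arrays.

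Zfp979 measured 8.44 and 13.84 in control, 14.78 and 14.74 under minoxidil, 13.99 and 14.27 under tieghemelin, and 14.72 and 14.24 under maslinic acid. Both minoxidil arrays were above all other arrays for this gene, and all treated arrays were above both controls. Zfp966 measured 7.98 and 13.22 in control, 12.71 and 13.44 under minoxidil, 13.84 and 14.18 under tieghemelin, and 14.53 and 13.78 under maslinic acid. Here Control array 2 lay between the minoxidil arrays, and the 4 arrays of the triterpene compounds were above all of them. Zfp970 had the same arrangement, with 8.27 and 12.36 in control, 12.17 and 12.63 under minoxidil, 13.12 and 14.24 under tieghemelin, and 13.46 and 13.51 under maslinic acid.

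The group means came in different orders. For Zfp965 and Zfp971 the order was minoxidil, tieghemelin, maslinic acid and control, with overlap between each neighbouring pair of treatments. For Zfp966 it was maslinic acid, tieghemelin, minoxidil and control, and for Zfp970 tieghemelin, maslinic acid, minoxidil and control. In these 2 genes minoxidil overlapped control, and the lower of the triterpene means lay above minoxidil without overlap. For Zfp979 the order was minoxidil, maslinic acid, tieghemelin and control, where only the neighbours maslinic acid and tieghemelin overlapped. Control means carried large spreads, from 10.98 ± 2.70 (SD, n = 2) for Zfp965 to 11.08 ± 4.47 (SD, n = 2) for Zfp971, whereas the largest SD in a treated group was 0.79, for Zfp970 under tieghemelin.

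Against both controls, minoxidil was higher by 2.87 on the log2 scale for Zfp965 (7.30-fold), 2.48 for Zfp966 (5.57-fold), 2.09 for Zfp970 (4.25-fold), 3.76 for Zfp971 (13.6-fold) and 3.62 for Zfp979 (12.3-fold). The standard errors were 1.03 to 1.61. Without Control array 1 these differences became 0.96, -0.14, 0.04, 0.60 and 0.92, with standard errors of 0.37 to 0.47. Both minoxidil arrays exceeded both controls in 3 of the 5 genes, where 20.6% of all probe sets did so; against Control array 2 alone the figure was again 3 of 5, with 37.8% of all probe sets. The direction of Zfp966 thus depended on Control array 1, and Zfp970 was level with Control array 2.

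Tieghemelin gave 2.70, 3.41, 3.37, 3.62 and 2.99 against both controls, in the order Zfp965, Zfp966, Zfp970, Zfp971 and Zfp979, and 0.79, 0.79, 1.32, 0.46 and 0.29 against Control array 2 alone. All 5 genes had both tieghemelin arrays above both controls, against 22.2% of all probe sets, or 39.6% with Control array 2 alone. Maslinic acid gave 2.60, 3.56, 3.17, 3.61 and 3.34 in the same order, and 0.69, 0.94, 1.12, 0.45 and 0.64 without Control array 1. Again 5 of 5 lay above both controls, against 20.8% of all probe sets, or 38.1% with Control array 2 alone. The median of the 5 genes went from 2.87 to 0.60 under minoxidil, from 3.37 to 0.79 under tieghemelin and from 3.34 to 0.69 under maslinic acid when Control array 1 was left out, while the median of all probe sets was 0.05 to 0.06 with all arrays. Most of the size of these medians therefore came from 1 array. The 3 contrasts share the same controls and are not separate evidence.

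Other probe sets of the same brightness were also dim on Control array 1. Of 140 probe sets whose mean over the other 7 arrays lay in the range of the 5 genes, 13.07 to 14.67, 96.4% were lower on Control array 1, with a median difference of -4.32 and quartiles of -5.19 and -3.32. The 5 genes differed by -4.51 (Zfp965), -4.81 (Zfp970), -5.69 (Zfp966), -5.93 (Zfp979) and -6.75 (Zfp971). Among the 140, 44.3% were lower by more than Zfp965, 35.0% by more than Zfp970, 16.4% by more than Zfp966, 12.1% by more than Zfp979 and 1.43% by more than Zfp971. These shares are a description: the 5 genes were picked with high values relative to control in view, and the 140 were taken by their brightness on the arrays other than Control array 1.

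**Figure D2:**
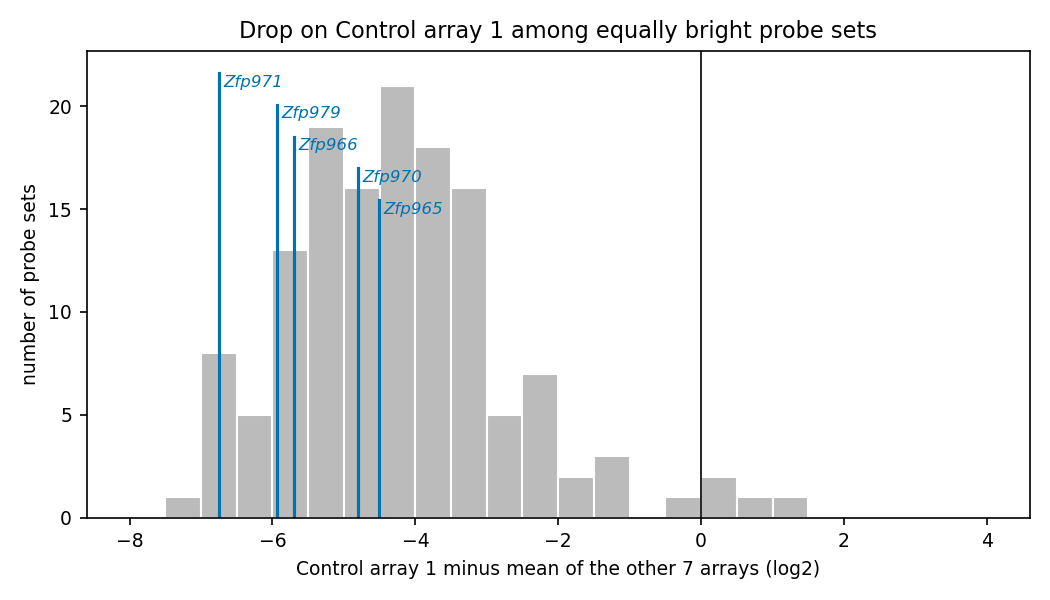
Histogram of Control array 1 minus the mean of the other 7 arrays (log2, horizontal axis) for the 140 equally bright probe sets, with the number of probe sets on the vertical axis and the 5 zinc finger genes as blue lines whose heights have no meaning. The genes lie between -6.75 and -4.51, and the median of the 140 is -4.32. The probe set with the largest rise, 4.77, lies beyond the last bar and is not drawn.

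The treatments were compared with each other in limma over all 22206 probe sets. In this fit the controls enter only through the shared estimate of spread. The 5 genes were chosen from contrasts of single treatments with control, so their p-values and intervals are no independent test. Of the 15 differences, 3 pairs of treatments in 5 genes, 0 passed an adjusted p under 0.05 in limma, with all arrays or without Control array 1. Over all probe sets the count in limma was also 0 (0%) for each pair, with 732, 800 and 68 at an unadjusted p of at most 0.05 for tieghemelin minus minoxidil, maslinic acid minus minoxidil and maslinic acid minus tieghemelin. Without Control array 1 those counts were 2845, 3024 and 507. With all arrays the 95% intervals were wide, such as -2.22 to 4.09 for Zfp966 in tieghemelin minus minoxidil, because the spread of the controls enters them.

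Without Control array 1, Zfp966 was higher under tieghemelin than minoxidil by 0.93 (95% interval 0.12 to 1.75; limma adjusted p = 0.339) and under maslinic acid by 1.08 (0.26 to 1.89; limma adjusted p = 0.267). Zfp970 was higher under tieghemelin by 1.28 (0.43 to 2.13; limma adjusted p = 0.25) and under maslinic acid by 1.08 (0.23 to 1.93; limma adjusted p = 0.27). In both genes the triterpene arrays and the minoxidil arrays did not overlap. Zfp979 leaned the other way, with -0.63 for tieghemelin minus minoxidil (-1.30 to 0.04; limma adjusted p = 0.417) and -0.28 for maslinic acid minus minoxidil (-0.95 to 0.39; limma adjusted p = 0.723), and its arrays did not overlap either. Zfp966 and Zfp970 had been named from the tieghemelin contrast and Zfp979 from the minoxidil contrast. These directions are therefore not independent of the choice of genes. Over all probe sets, both arrays were above both minoxidil arrays in 20.3% for tieghemelin and 20.1% for maslinic acid. They were below both in 23.6% and 23.5%.

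Zfp965 and Zfp971 had small differences from minoxidil, -0.17 and -0.14 for tieghemelin and -0.27 and -0.15 for maslinic acid, with overlapping arrays and intervals that included 0. Their sign turned with quantile normalization, as did that of Zfp979 for maslinic acid. At the study's thresholds, 1.7-fold and an unadjusted p of at most 0.05, 0 of the 5 genes passed against minoxidil with all arrays. Without Control array 1, 2 passed for each compound, Zfp966 and Zfp970, the genes named from the tieghemelin contrast. This count is therefore a description. The count was also 2 without Control array 2, since leaving out either control takes the spread between the controls out of the fit. The share of all probe sets at these thresholds went from 3.3% to 10.4% for tieghemelin and from 3.6% to 11.1% for maslinic acid.

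Tieghemelin and maslinic acid, a glycosylated and a free triterpene, did not differ beyond the spread in any of the 5 genes at the shared dose of 1%. Maslinic acid minus tieghemelin was -0.10 for Zfp965, 0.15 for Zfp966, -0.20 for Zfp970, -0.01 for Zfp971 and 0.35 for Zfp979, and the arrays overlapped in all 5. The 95% intervals without Control array 1 were -0.87 to 0.67, -0.67 to 0.96, -1.05 to 0.65, -0.71 to 0.69 and -0.32 to 1.03, and with all arrays they were wider, at -3.73 to 3.70 for Zfp971 and -2.85 to 3.55 for Zfp979. At the study's thresholds 0 of the 5 genes passed for this pair with all arrays or without Control array 1, where 0.306% and 1.56% of all probe sets did.

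**Figure D3:**
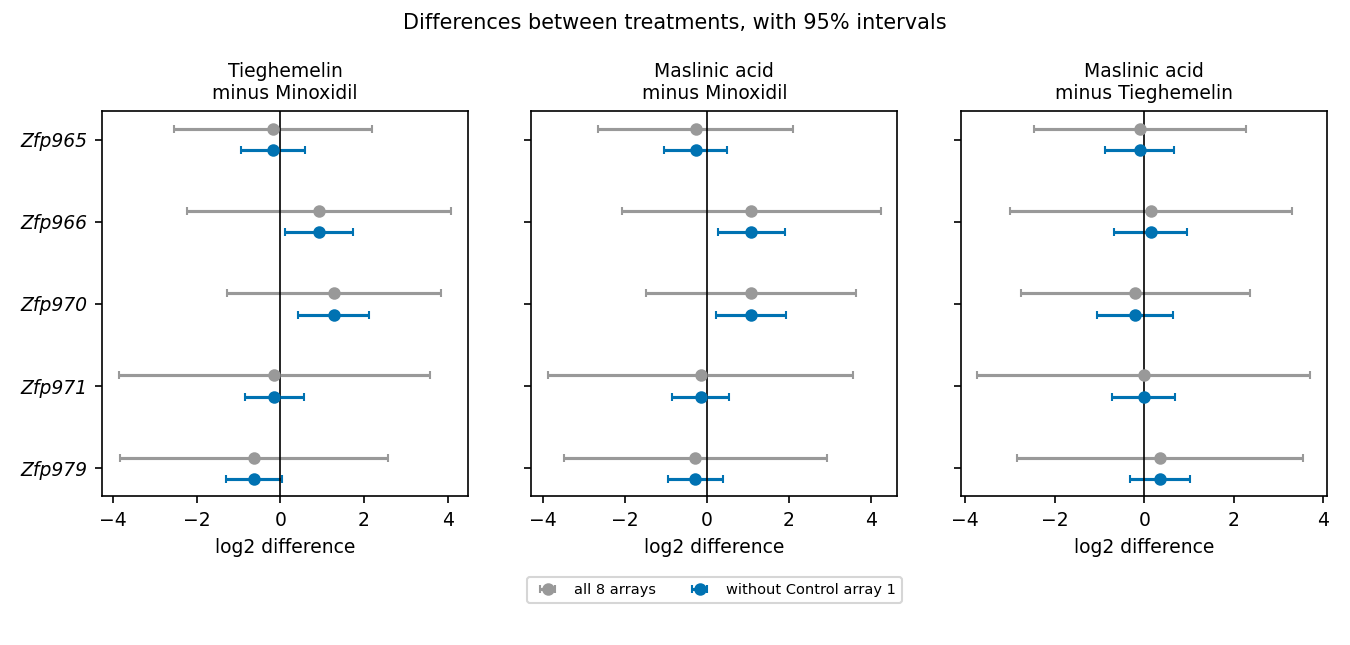
Difference between treatments (log2, horizontal axis) for the 5 zinc finger genes, with points for the difference of group means (2 arrays each) and bars for the 95% interval in limma, with all 8 arrays in grey and without Control array 1 in blue. Intervals for Zfp966 and Zfp970 against minoxidil exclude 0 only in blue, where the lowest bound is 0.12.

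Genes related to the 5 by promoter sequence, and not chosen by their values, were then described. A relative was a gene whose promoter aligned to that of a member at 80% identity or more over at least 200 bases; this rule was set after the values of the members had been seen. It gave 34 genes, 23 on chromosome 2 with identities of 95.4 to 100% and 11 on chromosome 4 with 80.7 to 98.6%. The array measured 12 of the former with 13 probe sets and 8 of the latter with 8. In RefSeq gene order 6 genes lay between Zfp965 and Zfp966, 39 between Zfp966 and Zfp970, and 12 between Zfp970 and Zfp971.

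On chromosome 2 most relatives had higher values under the triterpene compounds than under minoxidil, although 0 of 13 passed an adjusted p under 0.05 in limma. Tieghemelin minus minoxidil was above 0 for 12 of 13 probe sets with a median of 1.18 (Gm14325 was at -0.21), and maslinic acid minus minoxidil for 13 of 13 with a median of 1.05, against 47.2% and 47.7% of all probe sets and a median of -0.03 over them in each comparison. With quantile normalization these medians were 1.21 and 1.15. Both arrays lay above both minoxidil arrays in 12 of 13 under tieghemelin and 11 of 13 under maslinic acid, against the 20.3% and 20.1% given above. All 4 triterpene arrays lay above all 4 control and minoxidil arrays in 10 of 13 relatives, against 4.65% of all probe sets. The exceptions were Zfp931, Gm14325 and Gm14403. The same arrangement held in 2 of the 5 members, Zfp966 and Zfp970, both named from the tieghemelin contrast. Copies that are nearly identical may share signal between probe sets, so the 13 are not independent measurements.

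Gm14308 probe set 1 measured 8.26 and 8.30 in control, 8.83 and 8.56 under minoxidil, 10.34 and 10.59 under tieghemelin, and 10.51 and 10.08 under maslinic acid. The 2 control arrays differed by far less than in the members. Both values lay near the background medians of those arrays, 7.75 and 7.61, which leaves little room for a lower value on Control array 1. Tieghemelin minus minoxidil was 1.77 ± 0.36 (SE; limma adjusted p = 1.00 with all arrays and 0.206 without Control array 1), and maslinic acid minus minoxidil was 1.60. Tieghemelin minus control was 2.18 and without Control array 1 it was 2.17. Probe set 2 of the same gene was low on Control array 1 like the members. It measured 8.99 and 11.12 in control, 11.74 and 11.41 under minoxidil, 12.75 and 13.32 under tieghemelin, and 13.06 and 12.71 under maslinic acid, and its tieghemelin minus control went from 2.98 to 1.91 without Control array 1. Gm14308 was named after its values were seen.

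Gm14295 measured 8.75 and 9.69 in control, 9.33 and 9.36 under minoxidil, 10.83 and 10.58 under tieghemelin, and 11.04 and 10.56 under maslinic acid. Gm14305 measured 7.73 and 8.39 in control, 8.55 and 8.95 under minoxidil, 10.07 and 9.69 under tieghemelin, and 10.16 and 9.75 under maslinic acid. Both lay in the same arrangement as Zfp966 and Zfp970, with the triterpene arrays above the rest, but with a smaller gap between the 2 controls. Gm14305 was at the background median of 7.75 on Control array 1, so its gap could hardly be larger on that side. Probe set 1 of Gm14308, Gm14295 and Gm14305 were the relatives at the study's thresholds against minoxidil with all arrays, 3 of 13 for tieghemelin and 3 of 13 for maslinic acid, against 1.77% and 1.95% of all probe sets in that direction. Probe set 2 of Gm14308 did not pass. Without Control array 1 the counts were 10 and 9 of 13, against 4.95% and 5.3%, and 0 passed an adjusted p under 0.05 in limma in either setting.

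**Figure D4:**
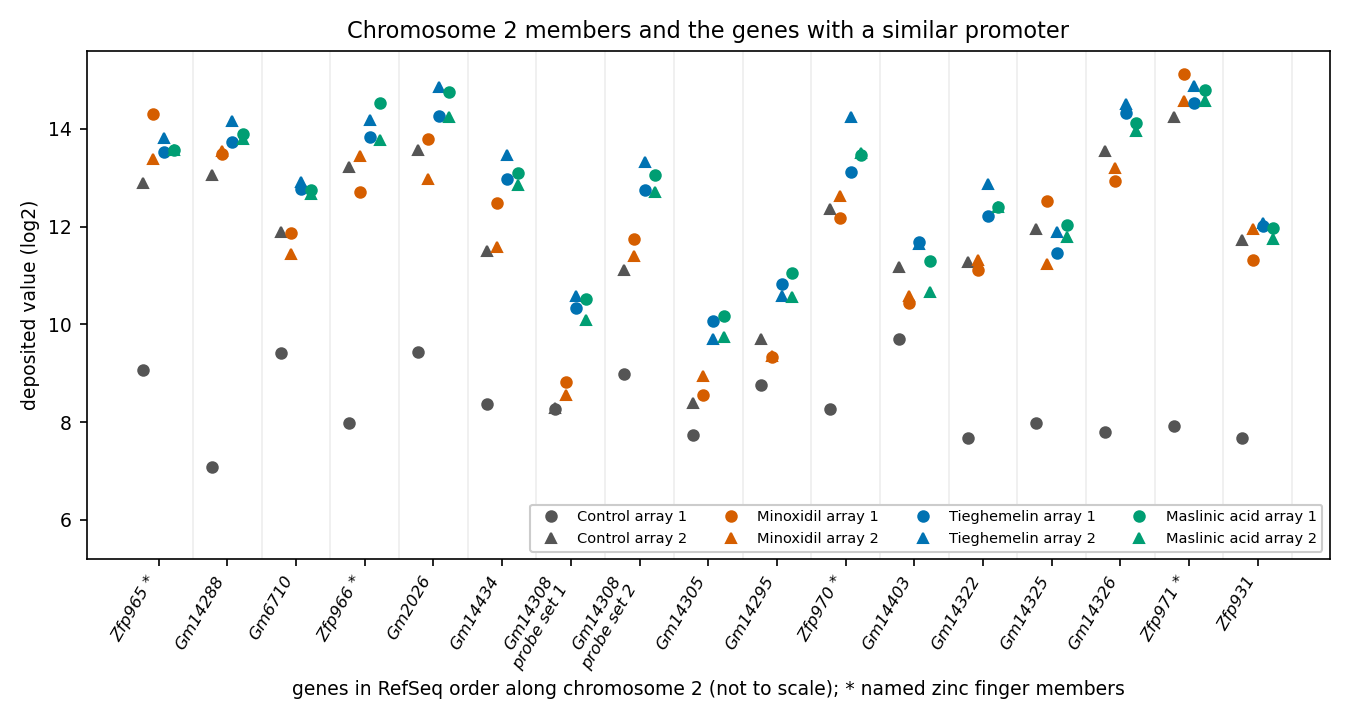
Deposited log2 value (vertical axis) of the 4 chromosome 2 members (asterisks) and the 13 probe sets of genes with a related promoter, in RefSeq gene order, with colour for the group and marker shape for the array. All 4 triterpene arrays lie above all 4 control and minoxidil arrays in 10 of the 13 relatives and in Zfp966 and Zfp970.

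Some marker lists of other cell types differed between these groups too. Skeletal muscle markers were lower under tieghemelin than under minoxidil in 9 of 10 probe sets, against 11732 of all 22206. The same count was 7 of 10 for keratinocyte, 3 of 6 for fibroblast, 2 of 5 for fat, 2 of 5 for immune and 2 of 4 for pigment cell markers. The muscle list had medians of 9.33 and 8.80 on the tieghemelin arrays and 11.55 and 11.08 on the minoxidil arrays. They were 12.19 and 9.85 under maslinic acid, and 12.73 and 15.03 in control. Germ line and early embryo markers, from cells where such zinc finger genes are known, had list medians of 8.19 and 8.85 in control, 9.27 and 9.11 under minoxidil, 9.29 and 9.44 under tieghemelin, and 9.70 and 9.26 under maslinic acid. With all arrays, 6 of these 8 markers were higher than control under each treatment, against 53.3%, 52.4% and 52.7% of all probe sets. Ddx4 and Pou5f1 were lower under each, and Pou5f1 measured 8.55 on Control array 1 and 5.78 to 6.89 on the others. Keratinocyte markers had medians of 8.73 and 10.15 in control and 8.55 to 9.50 under treatment. The part of any of these in the results on zinc finger genes was not tested.

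The relatives on chromosome 4 belong to the group of Zfp979. All 4 triterpene arrays lay above all 4 control and minoxidil arrays in 1 of 8, Zfp984, which measured 7.01 and 8.67 in control, 8.33 and 9.002 under minoxidil, 9.11 and 9.55 under tieghemelin, and 9.03 and 9.93 under maslinic acid. Both tieghemelin arrays were above both minoxidil arrays in 4 of 8 and both maslinic acid arrays in 3 of 8, against 20.3% and 20.1% of all probe sets. Tieghemelin minus minoxidil was above 0 for 4 of 8 with a median of 0.09, and maslinic acid minus minoxidil for 6 of 8 with a median of 0.15. Rex2, whose promoter was 98.6% identical to that of Zfp979, measured 8.03 and 11.20 in control, 11.00 and 11.16 under minoxidil, 11.28 and 10.67 under tieghemelin, and 11.63 and 11.21 under maslinic acid. Zfp985, the next gene to Zfp979 in RefSeq order, measured 8.08 and 10.30, 10.66 and 11.47, 10.35 and 10.67, and 11.59 and 10.09 in the same order of groups. Rex2 and Zfp985 were low on Control array 1 alone, as 7 of the 8 had their lowest value there. The difference between the chromosome 2 and chromosome 4 groups was not tested.

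Against control, the chromosome 2 relatives had medians of 1.74 for minoxidil, 2.34 for tieghemelin and 2.15 for maslinic acid. Without Control array 1 these were -0.07, 1.00 and 0.93. The chromosome 4 relatives had medians of 1.24, 1.34 and 1.63, and of -0.06, 0.05 and 0.21 without Control array 1. With Control array 2 alone as the reference, the median of the chromosome 2 relatives was thus above 0 under both triterpene compounds and near 0 under minoxidil.

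Genes beside the members that are no promoter relatives were mixed. Among the 10 genes on either side of each member, 10 probe sets were of this kind, and their list median was 7.87 on Control array 1 and 7.73 to 8.17 on the others. Their median difference from control was -0.03 for minoxidil, -0.32 for tieghemelin and -0.19 for maslinic acid. At the study's thresholds 3 were higher and 1 lower under tieghemelin, against 7.02% and 4.73% of all probe sets. The counts were 0 and 0 under minoxidil, against 6.98% and 4.29%, and 2 and 0 under maslinic acid, against 6.39% and 4.45%. Control array 1 was lowest in 3 of 10, Gm14327, Gm14393 and Ppp1r3d, against 35.5% of all probe sets. Gm14327 measured 6.67 on Control array 1 and 12.60 to 13.70 on the others, and Gm14393 7.74 and 9.63 to 12.02, both named after their values were seen. Both tieghemelin arrays were above both minoxidil arrays in 0 of 10, against 20.3% of all probe sets. Both maslinic acid arrays were so in 2 of 10, Gm14327 and Gm14393, against 20.1%.

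The zinc finger family as a whole had a similar list median on all arrays. Over 327 other probe sets named Zfp with a number, the list median was 8.07 on Control array 1 and 7.92 to 8.04 on the others. Median differences from control were 0.04, 0.05 and 0.08 for minoxidil, tieghemelin and maslinic acid. At the study's thresholds 24 were higher and 19 lower under minoxidil, 27 and 9 under tieghemelin, and 31 and 13 under maslinic acid, while 6.98%, 7.02% and 6.39% of all probe sets were higher and 4.29%, 4.73% and 4.45% lower. The 22 probe sets from Zfp950 to Zfp999 had list medians of 8.42 on Control array 1 and 8.72 to 9.03 elsewhere.

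Co-repressor genes were next described. Of 23 probe sets for co-repressor genes, 0 were higher and 0 lower at the study's thresholds under minoxidil, 0 and 2 under tieghemelin, and 1 and 1 under maslinic acid, against 11.3%, 11.7% and 10.8% of all probe sets in either direction. Trim28 measured 8.29 and 8.63 in control, 8.16 and 8.59 under minoxidil, 8.54 and 9.12 under tieghemelin, and 8.65 and 9.23 under maslinic acid. Setdb1 measured 7.51 and 7.35, 6.71 and 6.58, 6.92 and 7.35, and 6.79 and 6.51 in the same order, close to the background medians. Trim28 had its lowest value on Minoxidil array 1, at 8.16, and its next lowest on Control array 1, at 8.29.

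Cbx5, a heterochromatin protein gene, measured 5.84 and 9.48 in control, 7.92 and 7.38 under minoxidil, 8.12 and 7.69 under tieghemelin, and 8.21 and 7.75 under maslinic acid. Dnmt1, the maintenance DNA methyltransferase, measured 6.82 and 8.66 in control, 7.77 and 8.87 under minoxidil, 8.98 and 8.57 under tieghemelin, and 9.17 and 8.99 under maslinic acid. Cbx3, another heterochromatin protein gene, measured 9.03 and 15.41 in control, 16.23 and 15.62 under minoxidil, 14.99 and 15.83 under tieghemelin, and 15.31 and 14.82 under maslinic acid, and was named after its values were seen. Cbx3, Cbx5 and Dnmt1 were among the 10 of 23 co-repressor probe sets that were lowest on Control array 1. That place was held by 35.5% of all probe sets. Cbx5 and Dnmt1 lay below the background median of Control array 1, 7.75. Zfp57, which protects imprints, measured 5.17 to 7.13, below the background median of every array, where the order of arrays carries little meaning. Zfp809, which silences proviruses, measured 8.08 to 9.32, and neither gene had its lowest value on Control array 1. Of the 11 probe sets on a list of known zinc finger repressors 5 did, for Zfp932, Zfp992, Rex2, Zfp445 and Zfp42. The KRAB domain was not checked for this list, and Zfp42 is also one of the germ line and early embryo markers. The Zfp932 probe set concerned measured 7.60 on Control array 1 and 12.06 to 13.06 on the other arrays, and was named after its values were seen. The other probe set of Zfp932 measured 8.47 on Control array 1 and 6.95 to 8.82 on the other arrays.

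The genes most like the 5 over all 8 arrays were picked by the root mean square difference between centred log2 profiles. They were 5730507C01Rik on chromosome 12 (0.165), Gm20816 on Y (0.200), Gm20823 on Y (0.240), 2410141K09Rik on chromosome 13 (0.249) and Gm20917 on Y (0.299), where the members themselves stood 0.35 to 0.51 from their own mean profile. Gm20816 measured 9.83 on Control array 1 and 14.88 to 15.44 elsewhere, and 5730507C01Rik 6.61 and 11.60 to 12.31. Over the 7 arrays without Control array 1 the nearest were Pate2 (0.056), Vmn1r127 (0.082), Cdc20 (0.085), Sgsm1 (0.089) and Gm14288 (0.092), and the members stood 0.24 to 0.47 away. Of these 10 genes, Gm14288 alone was a promoter relative, and none of the names in the first list recurred in the second.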

How the data were processed

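Material made from dorsal skin RNA of 8 samples was hybridised to Clariom S Mouse arrays. The deposited values were taken as log2 intensity from their range; per the series' design text the authors normalised the scans in Transcriptome Analysis Console (4.0.1), and the submitters' processing notes also name Affymetrix Expression Console and RMA. The genome build behind the probe sets is not given in the sources used here. Of 28846 probe sets, 6640 controls were left out and 22206 were used without further scaling; 19572 had 1 symbol, 0 several and 2634 none. Groups came from the labels. limma 3.58.1 in R 4.3.3 (lmFit, eBayes; 4 groups of 2 arrays, 4 residual degrees of freedom) with Benjamini-Hochberg adjustment over all probe sets was tested on simulated data first. Genes were named by fixed symbol lists, by RefSeq gene order and by the 5 nearest profiles with 8 and with 7 arrays. The members and lists were chosen with earlier results of these data known. Replicate numbers did not pair the arrays: same-numbered deviations correlated at -0.17 to 0.09. Alternatives were quantile normalization, a median shift, a filter on low values, a trended robust fit, the groups alone, a replicate block and leaving out each array.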

Additional observations from a re-analysis of the deposited data

How the results depend on the processing

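With 2 arrays per group, each value rests on few measurements. Leaving out single arrays put the median of the 5 genes against control at 0.60 to 5.10 for minoxidil, 0.79 to 5.69 for tieghemelin and 0.69 to 6.05 for maslinic acid, the low ends without Control array 1 and the high ends without Control array 2. Against control 1 of 210 values of single genes turned its sign, Zfp966 under minoxidil, at -0.14 without Control array 1. Between treatments 17 of 210 did. With quantile normalization Zfp965 was 0.036 and Zfp971 0.17 for tieghemelin minus minoxidil, Zfp965 0.016, Zfp971 0.25 and Zfp979 0.15 for maslinic acid minus minoxidil, and Zfp971 0.077 for maslinic acid minus tieghemelin. The other sign changes came from leaving out a treated array. For tieghemelin minus minoxidil the range was -0.62 to 0.28 for Zfp965 and -0.42 to 0.14 for Zfp971, and for maslinic acid minus minoxidil -0.72 to 0.18 and -0.43 to 0.13. For maslinic acid minus tieghemelin it was -0.24 to 0.045 for Zfp965, -0.23 to 0.52 for Zfp966, -0.76 to 0.36 for Zfp970 and -0.19 to 0.16 for Zfp971. The cause was not tested. Members at the study's thresholds against minoxidil, 0 with all arrays, were 2 for each compound with the 2 groups alone and 0 to 2 when arrays were left out (2 without either control array). The chromosome 2 relatives at these thresholds, 3 for each compound, ranged from 1 to 10 for tieghemelin (10 without either control array, 1 without Minoxidil array 1 or Tieghemelin array 1) and from 1 to 9 for maslinic acid (9 without either control array, 1 without Maslinic acid array 1). Over all probe sets the counts at the study's thresholds, 732, 800 and 68 with all arrays, ranged over 223 to 2320, 301 to 2463 and 23 to 363. A replicate block, with arrays that share only a number, left 0 members called for every pair of treatments.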
